A study of Mus musculus with 12 samples.

Results

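The collagen genes on these arrays were defined by symbol, as genes named Col, a number, a and a number on the platform. In the table, 29 such genes had a probe set that stands for a single gene, and 25 of them had a value on at least 2 arrays of one group, out of 12163 genes of the series that met the same requirement. Of the 25, 13 met it in liver and 24 in lung, with 12 in both tissues, 12 in lung alone and 1 (Col5a3) in liver alone. In each tissue a gene was represented by the one of its probe sets with the highest mean signal, out of 45 for these genes. Where both tissues were compared, the highest mean over the 12 arrays decided. The other 4 genes were left out: Col2a1 and Col11a1 were blank on the 12 arrays, Col17a1 was listed on 2 lung arrays of different diets and Col20a1 on 1 liver array.

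Liver and lung had been taken from male FVB/N mice that received a diet with 0 or 0.1 ppm Se added, as sodium selenite, for 6 weeks from weaning at 3 weeks of age, with no other treatment or allele in the labels. The 12 arrays formed 4 groups of 3 biological replicates, named 0 Se liver, 0.1 Se liver, 0 Se lung and 0.1 Se lung. Whole tissue was used, so fewer cells of a type and less RNA per cell cannot be told apart. Values are log2 MAS5 signals, and a blank, left by an absent call or a signal under 100 (6.64 on the log2 scale), has no level.

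Collagens are secreted or membrane proteins in which 3 chains wind into a triple helix. Type I, III and V chains build the banded fibrils of connective tissue, type IV chains form the network of basement membranes beneath epithelium and around vessels, and type VI chains form beaded filaments between them. Smaller classes coat the fibrils, span the cell membrane or, like type XVIII, carry sugar chains in basement membranes. In lung, fibrils and alveolar basement membranes hold the air spaces open, whereas healthy liver holds little fibrillar collagen, made mainly by stellate cells and portal fibroblasts, and hepatocytes are a known source of type XVIII.

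Promoter sequences are shown for the collagens on which the comparisons of tissues and of liver arrays turn: the basement membrane pair Col4a1 and Col4a2, the fibrillar genes Col1a2 and Col3a1, whose signals varied most between livers, and Col18a1, which had the largest excess in liver among the genes tested. They come from RefSeq on GRCm38.p6, where 20 of the 25 genes matched with 22 windows of 250 bases before and 50 after a gene start. Each is printed 5′ to 3′ on the gene's own strand, and capitals mark the CCAAT box, the GC box with the letters GGGCGG and the TATA box with the letters TATAAA, each on either strand, the other strand in reverse complement. The windows are chr8:11312777-11313076 (minus strand) for Col4a1, chr8:11312555-11312854 (plus) for Col4a2, chr6:4505368-4505667 (plus) for Col1a2, chr1:45311288-45311587 (plus) for Col3a1 and, for 2 starts of Col18a1, chr10:77166481-77166780 and chr10:77113656-77113955 (both minus).
Col4a1: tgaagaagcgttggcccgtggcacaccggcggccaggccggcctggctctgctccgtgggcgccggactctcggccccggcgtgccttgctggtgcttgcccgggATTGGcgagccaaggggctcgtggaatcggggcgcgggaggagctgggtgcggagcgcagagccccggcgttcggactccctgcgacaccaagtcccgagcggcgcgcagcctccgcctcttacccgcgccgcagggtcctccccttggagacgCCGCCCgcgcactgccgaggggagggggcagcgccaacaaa
Col4a2: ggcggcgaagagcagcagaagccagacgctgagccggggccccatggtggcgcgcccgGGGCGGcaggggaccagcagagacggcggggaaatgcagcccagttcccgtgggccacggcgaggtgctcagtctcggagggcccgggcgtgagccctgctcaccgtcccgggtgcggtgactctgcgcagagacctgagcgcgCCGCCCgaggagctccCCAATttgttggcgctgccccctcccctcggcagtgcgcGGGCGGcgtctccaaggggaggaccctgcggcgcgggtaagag
Col1a2: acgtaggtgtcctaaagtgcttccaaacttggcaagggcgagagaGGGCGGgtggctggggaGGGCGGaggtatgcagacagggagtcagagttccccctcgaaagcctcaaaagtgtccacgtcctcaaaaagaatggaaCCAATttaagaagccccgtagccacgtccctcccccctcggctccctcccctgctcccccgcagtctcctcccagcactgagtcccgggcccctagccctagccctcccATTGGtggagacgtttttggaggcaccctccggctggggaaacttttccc
Col3a1: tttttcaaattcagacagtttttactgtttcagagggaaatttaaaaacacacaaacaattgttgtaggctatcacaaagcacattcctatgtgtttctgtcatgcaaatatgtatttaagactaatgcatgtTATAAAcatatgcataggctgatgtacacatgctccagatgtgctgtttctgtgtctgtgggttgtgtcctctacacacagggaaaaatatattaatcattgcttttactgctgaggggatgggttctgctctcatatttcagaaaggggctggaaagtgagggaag
Col18a1, first start: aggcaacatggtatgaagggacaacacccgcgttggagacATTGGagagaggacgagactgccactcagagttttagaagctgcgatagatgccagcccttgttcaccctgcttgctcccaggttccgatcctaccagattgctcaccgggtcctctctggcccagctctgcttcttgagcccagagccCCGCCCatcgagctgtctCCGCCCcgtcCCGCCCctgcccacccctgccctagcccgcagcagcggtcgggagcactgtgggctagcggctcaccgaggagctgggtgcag
Col18a1, second start: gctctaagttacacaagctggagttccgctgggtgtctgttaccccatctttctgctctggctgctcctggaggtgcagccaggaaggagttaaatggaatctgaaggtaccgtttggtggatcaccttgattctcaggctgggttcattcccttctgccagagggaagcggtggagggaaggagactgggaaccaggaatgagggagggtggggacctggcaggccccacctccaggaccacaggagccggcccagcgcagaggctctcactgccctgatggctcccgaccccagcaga

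Col4a1 and Col4a2 run in opposite directions from starts 21 bases apart, so that their windows share 78 bases, read on opposite strands. Each of these windows held 1 CCAAT, and the Col4a2 window held 3 GGGCGG against 1 in that of Col4a1. The Col1a2 window held 2 of each of these motifs and no TATAAA. Col3a1 had the lowest GC content of the 22 windows (37.7%, against 75.0% at the highest), with a TATAAA at positions -117 to -112 from its start and neither of the other motifs. The first Col18a1 start had 3 GGGCGG between positions -61 and -28, and the second, 52825 bases further along the gene, held none of the 3 motifs. Over the 22 collagen windows, GGGCGG was present in 72.7%, CCAAT in 36.4% and TATAAA in 9.1%. Over 32851 promoter windows of all genes the shares were 35.7%, 37.4% and 13.6%. The median GC content was 62.5% in the collagen windows and 52.7% in all windows, and the part of GC content in these shares was not tested. The windows of Col6a2 also overlap each other. None of the 3 motifs overlapped another in the printed windows.

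**Figure D1:**
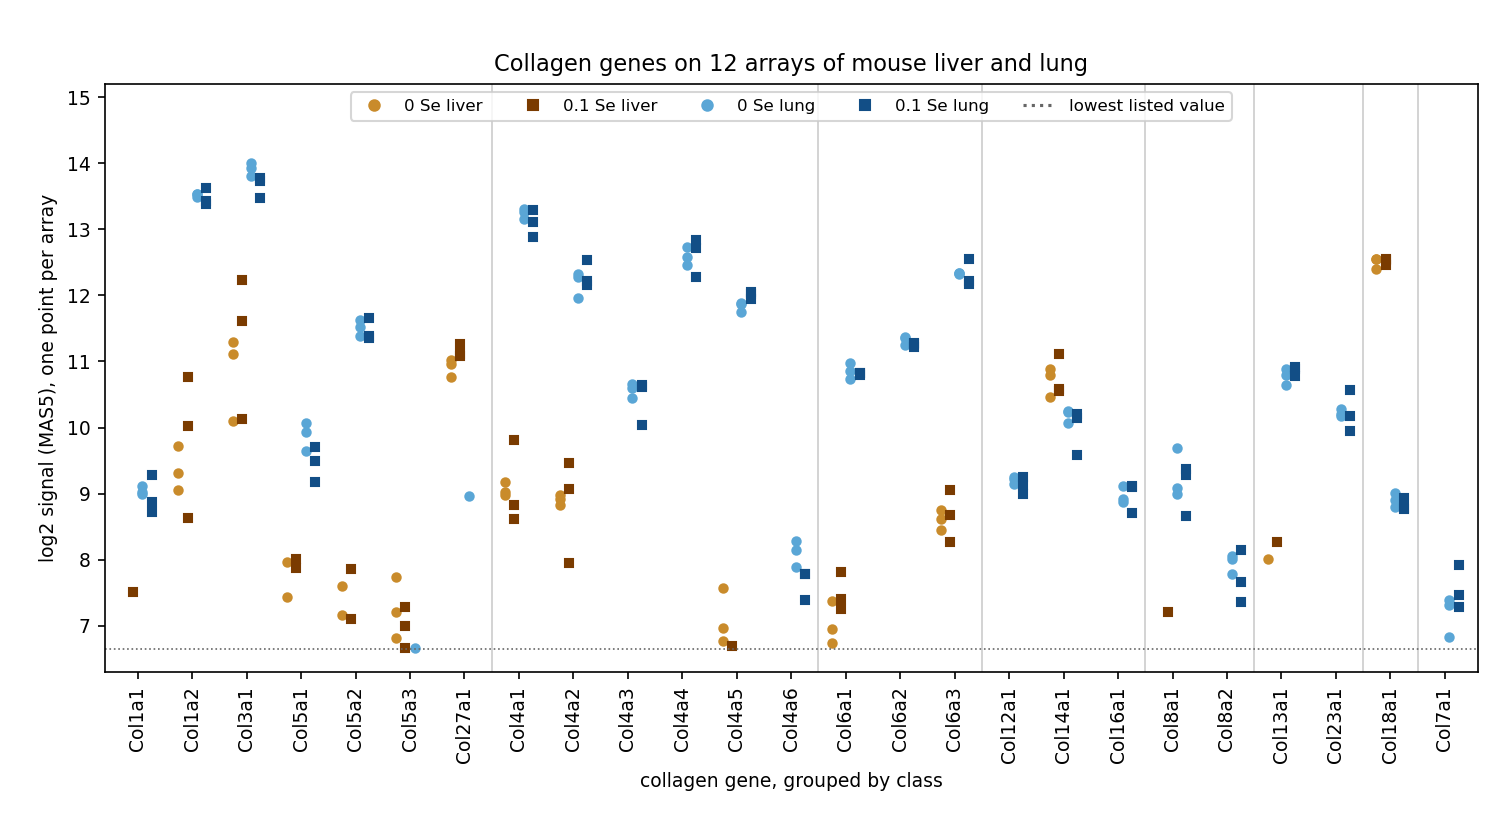
Log2 MAS5 signal of the 25 collagen genes (x axis, grouped by class from fibrillar genes at the left to Col7a1 at the right) on each array that listed them, with 1 point per array, colours for the 4 groups and a dotted line at the lowest listed value. Lung points lie above liver points for most genes, 9 genes have lung points alone, and Col18a1, Col14a1 and Col27a1 are higher in liver.

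Most collagen genes had their higher signals in lung, and many were not listed in liver at all. Of the 25 genes, 9 were listed on the 6 lung arrays and on 0 liver arrays, 8 on the 12 arrays, and none on the 6 liver arrays alone. Among all 21231 single-gene probe sets that met the same requirement, 12.5% were listed on the 6 lung arrays and 0 liver arrays, 56.9% on the 12 arrays and 2.98% on the 6 liver arrays and 0 lung arrays. These shares count probe sets, not genes. Of the 45 probe sets of the 25 genes, 19 were listed on the 6 lung arrays and 0 liver arrays. The 9 genes were Col4a3, Col4a4 and Col4a6 of basement membranes, Col6a2 of the beaded filaments, the fibril-associated Col12a1 and Col16a1, the transmembrane Col23a1, Col8a2 of the hexagonal networks and Col7a1, the anchoring fibril collagen of epithelia. Other probe sets of Col12a1 and Col6a2 were listed on 2 liver arrays (7.05 and 7.50) and on 1 (8.09), so that these genes were not wholly blank in liver. No fold change is given for the 9 genes, because a blank has no level.

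With the probe set that stood for each gene, 10 collagen genes could be tested between tissues. Of these, 8 were higher in lung and 2 lower (limma, adjusted p from 5.389e-16 to 0.0001973). Over all 15112 probe sets tested, 47.7% were called higher in lung and 33.9% lower. The median lung minus liver difference was 3.48 on the log2 scale over the 10 genes and 0.18 over all probe sets tested. For the other 15 genes, the probe set that stood for the gene had fewer than 2 values in a group. Col27a1 was among them, although its other probe set was tested and called lower in lung (-1.69 ± 0.14, adjusted p = 1.87e-08 by limma). Quantile normalization moved the median of all probe sets to 0.45 and that of the 10 genes to 3.80, and it raised the share of higher calls among all calls from 58.4% to 68.7%, which median centring lowered to 49.2%. The 8 and 2 calls kept their directions under both and on the arrays of either diet alone.

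Among the fibrillar genes, Col1a2, which encodes the second chain of type I collagen, had signals of 9.31, 9.71 and 9.06 in 0 Se liver and 8.64, 10.76 and 10.03 in 0.1 Se liver. In lung its signals were 13.54, 13.54 and 13.49 on the 0 Se diet and 13.63, 13.43 and 13.39 on the 0.1 Se diet. The tissues did not overlap, and the lung arrays lay close together where the liver arrays were far apart. Lung exceeded liver by 3.92 ± 0.25 (SE, adjusted p = 6.20e-10), a 15.1-fold difference.

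Col3a1, the chain of the reticular fibres of soft organs, was listed on every array. It read 11.11, 11.30 and 10.09 in 0 Se liver and 10.13, 12.23 and 11.61 in 0.1 Se liver, against 13.81, 14.00 and 13.92 in 0 Se lung and 13.48, 13.78 and 13.72 in 0.1 Se lung. Every lung array lay above every liver array, and 0.1 Se liver 2, the highest liver array, came nearest to them. The difference was 2.71 ± 0.28 (6.52-fold, 95% confidence interval 2.12 to 3.29), and a weaker probe set of the gene gave 2.74.

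The type V chains, which set the diameter of type I fibrils, were near the detection limit in liver. Col5a2 was listed on 4 liver arrays at 7.11 to 7.86 and on the 6 lung arrays at 11.36 to 11.66, a difference of 4.06 ± 0.15 (16.7-fold). Col5a1 averaged 7.82 ± 0.26 (SD) on 4 liver arrays and 9.67 ± 0.32 on the 6 lung arrays, a difference of 1.85 ± 0.15 (SE, 3.62-fold). Both were blank on 0 Se liver 3 and 0.1 Se liver 1, the arrays on which Col3a1 and Col1a2 were lowest.

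Col1a1, the first chain of type I collagen, was listed on the 6 lung arrays at 8.72 to 9.28 but on a single liver array, 0.1 Se liver 2, at 7.51. Col5a3 was listed on the 6 liver arrays at 6.66 to 7.73 and on 1 lung array at 6.66, at the bottom of the range. Col27a1, a fibrillar chain best known from cartilage and developing tissues, stood out with liver signals of 10.97, 11.02 and 10.77 on the 0 Se diet and 11.27, 11.08 and 11.11 on the 0.1 Se diet. Its probe set was listed on only 1 lung array, 0 Se lung 2, at 8.97, and the other 5 have no level. Another Col27a1 probe set, listed on the 12 arrays, averaged 9.34 ± 0.27 (SD, n = 6) in liver and 7.64 ± 0.23 in lung, lower in lung by 3.24-fold (difference -1.69 ± 0.14, SE).

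The 6 basement membrane chains were listed on every lung array, and the 2 that could be tested were higher in lung. Col4a1, a chain of nearly all basement membranes, had signals of 9.18, 9.03 and 8.98 in 0 Se liver, 8.82, 9.81 and 8.62 in 0.1 Se liver, 13.26, 13.16 and 13.30 in 0 Se lung and 12.88, 13.29 and 13.12 in 0.1 Se lung. The tissues were far from overlapping, and the difference of 4.10 ± 0.15 (17.1-fold) was the largest increase among the 10 genes tested. Its partner Col4a2 read 8.92, 8.97 and 8.83 in 0 Se liver and 7.95, 9.47 and 9.07 in 0.1 Se liver, against 11.97 to 12.53 in lung. It differed by 3.38 ± 0.19 (10.4-fold), again without overlap of the tissues.

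The remaining type IV chains were listed mainly in lung. Col4a3, Col4a4 and Col4a5, whose products assemble together in the basement membranes of kidney glomeruli and lung alveoli, had lung signals of 10.03 to 10.65, 12.29 to 12.84 and 11.75 to 12.05. In liver, Col4a3 and Col4a4 were blank on the 6 arrays and Col4a5 was listed on 4 at 6.69 to 7.57, of which 3 were 0 Se arrays, too few for a test. Col4a6, a chain that pairs with Col4a5 in other basement membranes, was at 7.39 to 8.28 in lung and blank in liver.

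Both beaded filament genes that could be tested were higher in lung by a similar amount. Col6a1 was at 6.73 to 7.81 in liver and 10.74 to 10.97 in lung (difference 3.58 ± 0.12, 11.9-fold), and Col6a3 at 8.26 to 9.05 and 12.17 to 12.55 (3.69 ± 0.12, 12.9-fold). Their partner Col6a2 was listed in lung at 11.22 to 11.36. The liver signals of Col6a1 began just above the lowest listed value.

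The 2 collagen genes called lower in lung by the probe set that stood for the gene belong to other classes. Col18a1, the type XVIII chain from which endostatin is cleaved, read 12.55, 12.39 and 12.55 in 0 Se liver, 12.54, 12.55 and 12.46 in 0.1 Se liver, 8.90, 9.01 and 8.79 in 0 Se lung and 8.78, 8.94 and 8.76 in 0.1 Se lung. The arrays of each tissue formed a tight cluster and the tissues lay far apart, with a difference of -3.65 ± 0.07 (12.5-fold lower in lung). Its second probe set, of the kind that can bind related transcripts, gave -4.93 ± 0.14. Col14a1, a fibril-associated collagen of tendon, skin and vessel walls, was at 10.46 to 11.11 in liver and 9.59 to 10.24 in lung. Its difference of -0.65 ± 0.13 (1.57-fold, adjusted p = 0.0001973) was the smallest of the 10, although the tissues did not overlap, and its other probe set gave -0.84.

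Among the remaining classes, the transmembrane Col13a1 was at 10.64 to 10.92 in lung and listed on 2 liver arrays of different diets at 8.01 and 8.26. Col23a1, also transmembrane, read 9.95 to 10.58 in lung. The hexagonal network genes of vessel walls and cornea, Col8a1 and Col8a2, were at 8.66 to 9.69 and 7.36 to 8.14 in lung, with Col8a1 also listed on 0.1 Se liver 2 at 7.21. The fibril-associated Col12a1 and Col16a1 lay at 9.00 to 9.26 and 8.71 to 9.12 in lung, and Col7a1 at 6.83 to 7.92. Signals of different probe sets were not set against each other, since each has its own response.

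**Figure D2:**
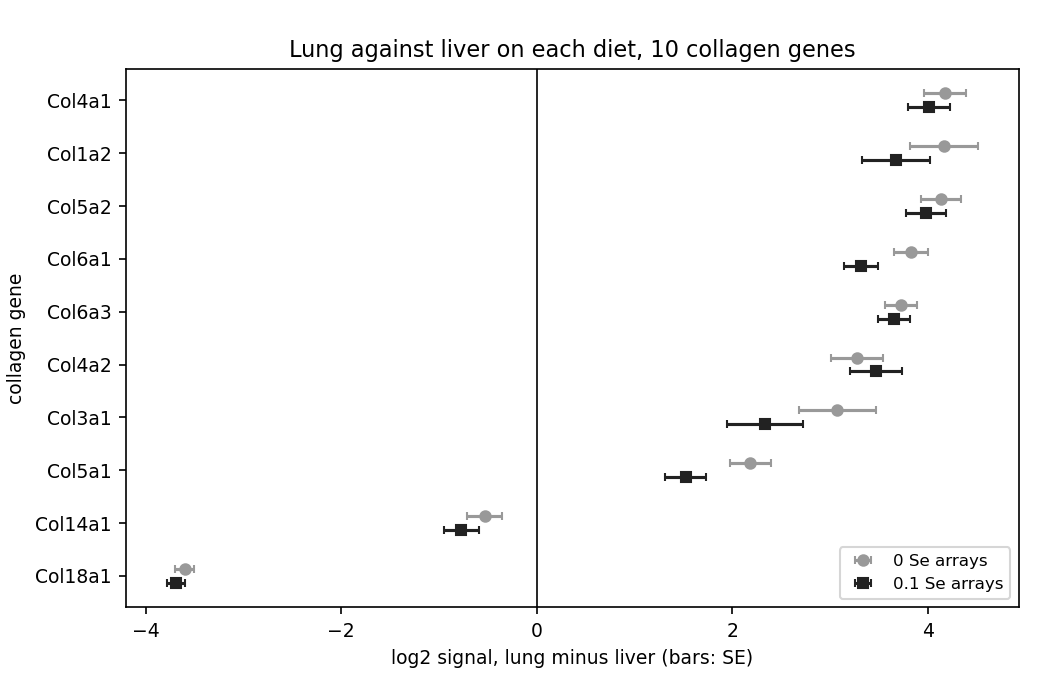
Lung minus liver difference of the log2 signal (x axis) for the 10 collagen genes tested, with circles for the 0 Se arrays, squares for the 0.1 Se arrays and bars for the SE. The 8 higher genes lie between 1.52 and 4.18 on either diet, Col14a1 at -0.53 and -0.77 and Col18a1 at -3.60 and -3.69.

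The tissue difference was present on each diet for the 10 genes, as the plot by diet shows. Col4a1 gave 4.18 ± 0.22 on the 0 Se diet and 4.01 ± 0.22 on the 0.1 Se diet, and Col18a1 gave -3.60 ± 0.10 and -3.69 ± 0.10. The values farthest apart were those of Col3a1, at 3.08 ± 0.39 and 2.33 ± 0.39, followed by Col5a1, at 2.19 ± 0.21 and 1.52 ± 0.21. The difference between the diets in these values, tested as an interaction, was called for 0 of the 10 genes by limma (smallest adjusted p = 0.779) and for 0 of all 15112 probe sets (0%), and 1 gene and 931 probe sets had an unadjusted p under 0.05. That gene was Col5a1, at -0.66 ± 0.29. Below 0 were 9 of the 10 interaction values, which rest on the same arrays, and 49.9% of all probe sets were above 0. The median of the collagen values was -0.20, and it ran from -0.34 to -0.04 when single arrays were left out.

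Genes that serve collagen outside the family were examined in 8 lists. Of the partners of type IV collagen in basement membranes, 6 of 6 tested were higher in lung, with a median of 2.60, among them the laminin chains Lamb1 (4.05 ± 0.12) and Lama3 (2.95 ± 0.12) and Pxdn (3.19 ± 0.12), the peroxidase that cross-links the type IV network. The collagen receptors gave 5 of 5 higher, including the discoidin receptor Ddr2 (3.95 ± 0.13), and the elastic fibre genes 4 of 4. In the TGF-beta pathway 11 of 12 were higher. In propeptide removal and cross-linking 4 of 5 were higher, with Pcolce2 (5.77 ± 0.15) and Pcolce (4.07 ± 0.17), which speed procollagen cleavage, but Bmp1, the procollagen C-proteinase itself, was lower (-1.04 ± 0.10).

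Genes of collagen modification and folding were divided. Of 15 tested, 6 were higher in lung and 7 lower, with the chaperone Serpinh1 at 3.96 ± 0.12 and Sparc, a collagen-binding glycoprotein, at 3.27 ± 0.09, against -2.16 ± 0.07 for Tmem38b, an endoplasmic reticulum ion channel, and -1.75 ± 0.06 for Mia3, which loads procollagen for export. The list of degradation genes gave 2 higher and 2 lower of 5, and that of fibril-associated proteoglycans and glycoproteins 4 higher and 4 lower of 9, with Ogn (6.84 ± 0.09) higher and the liver-made Fn1 (-2.11 ± 0.07) lower. The lists were read beside the 47.7% and 33.9% of all probe sets.

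Tissue labels were checked on marker lists. Of 10 hepatocyte markers, 9 were listed on the 6 liver arrays and 8 of these on 0 lung arrays, with Alb on 3 lung arrays at 6.70 to 7.15 against 15.51 to 15.93 in liver. Of 10 markers of alveolar type 2 cells, 9 were listed on the 6 lung arrays, and Sftpc lay at 14.80 to 15.83 there and at 6.96 on 1 liver array. Endothelial markers were higher in lung for 9 of 9 tested and fibroblast markers for 4 of 5. Of 4 hepatic stellate cell markers tested 3 were lower, and Lrat was at 0.26 ± 0.21. Of those not tested, Des was listed on 6 lung and 0 liver arrays and Cygb on 6 lung and 2 liver arrays. Hand2 was listed on 6 liver and 0 lung arrays and Ngfr on 2 liver and 0 lung arrays. The part of cell composition in the collagen differences was not tested.

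**Figure D3:**
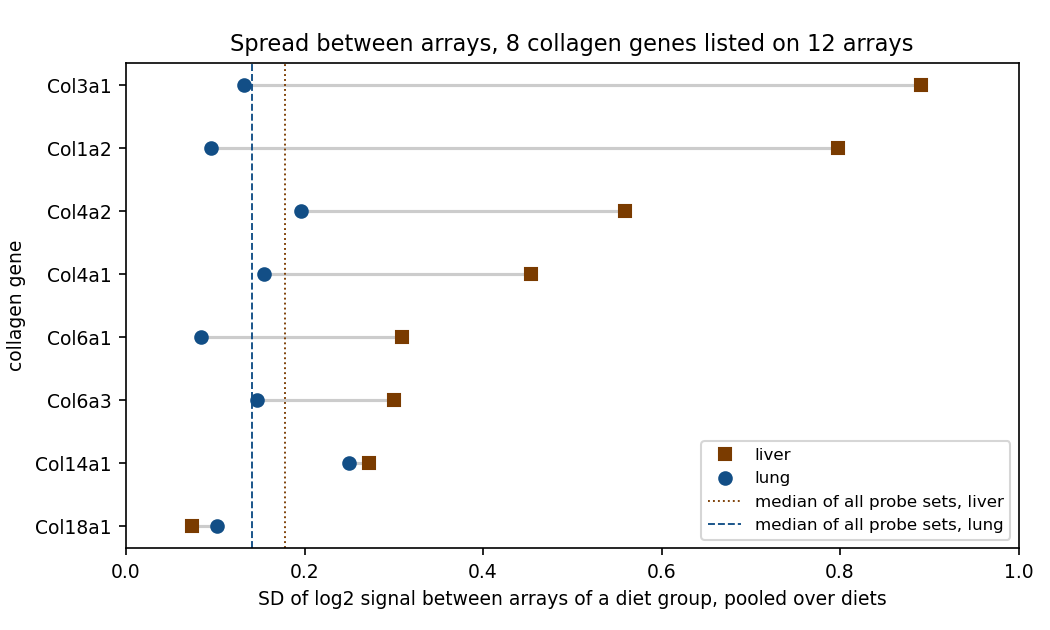
SD of the log2 signal between arrays of the same diet group, pooled over both diets (x axis), for the 8 collagen genes listed on the 12 arrays, with squares for liver, circles for lung and vertical lines for the medians over 13376 probe sets (0.18 in liver and 0.14 in lung). Col3a1 and Col1a2 reach 0.89 and 0.80 in liver and stay at 0.13 and 0.09 in lung, while Col18a1 lies below both medians.

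Of the 8 collagen genes listed on the 12 arrays, all but Col18a1 had a larger spread, pooled over both diets, between livers than between lungs. The pooled SD of Col3a1 was 0.89 in liver, at the 99.96th percentile of 13376 probe sets listed on every array, and 0.13 in lung, at the 44.68th. Col1a2 had 0.80 in liver (99.88th percentile) and 0.09 in lung. The basement membrane pair followed, Col4a2 with 0.56 (98.89th) and Col4a1 with 0.45 (96.79th), and then Col6a1 with 0.31 and Col6a3 with 0.30. The spread of the pair came from the 0.1 Se livers, with SDs of 0.79 (Col4a2) and 0.63 (Col4a1). Among the 0 Se livers these were 0.07 and 0.11. The SDs in 0 Se and 0.1 Se liver were 0.65 and 1.08 for Col3a1, and 0.33 and 1.08 for Col1a2. Col14a1 varied similarly in both tissues, at 0.27 and 0.25, and Col18a1 had the narrowest spread in liver, 0.07 (7.7th percentile), against 0.10 in lung. The median over the same probe sets was 0.18 in liver. Probe sets with a similar mean liver signal had medians of 0.14 for Col3a1, 0.18 for Col1a2, 0.21 for Col4a2 and 0.20 for Col4a1. These medians were 0.27 for Col6a1, 0.22 for Col6a3, 0.14 for Col14a1 and 0.12 for Col18a1, so Col6a1 lay close to probe sets of its level. The part of signal level in the difference between tissues was not tested.

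**Figure D4:**
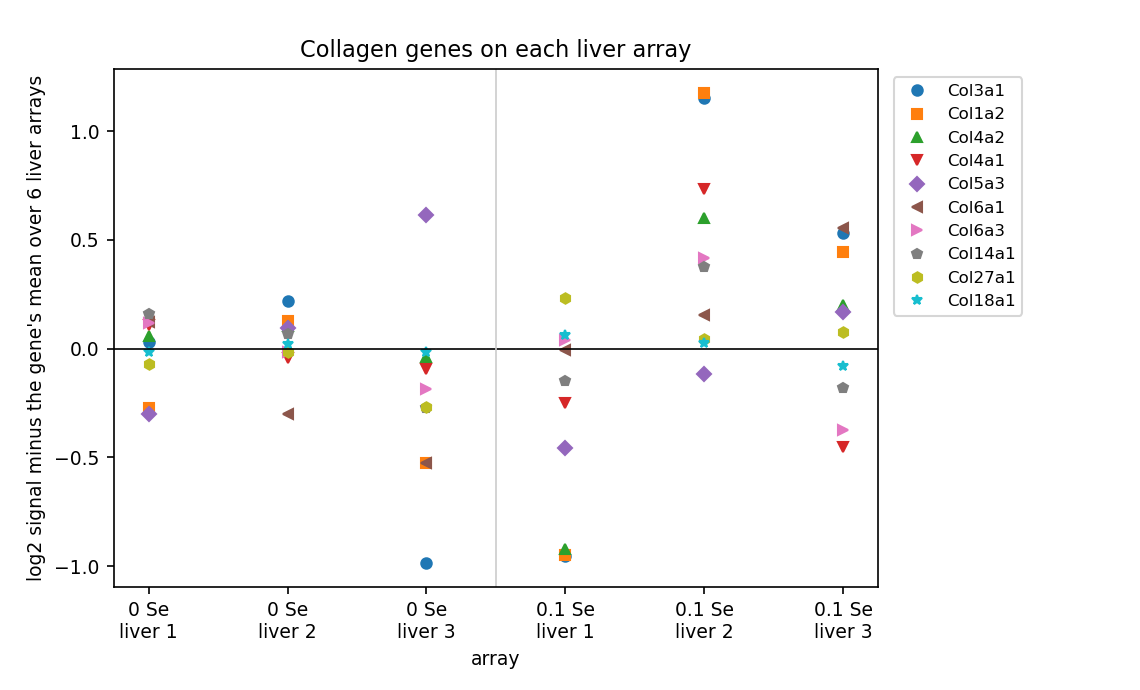
Log2 signal minus the gene's mean over the 6 liver arrays (y axis) for the 10 collagen genes listed on every liver array, shown for each array (x axis) with 1 symbol per gene. Most genes are high on 0.1 Se liver 2, Col3a1 is near -1 on 0 Se liver 3 and on 0.1 Se liver 1, and Col18a1 (second probe set) stays near 0 throughout.

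The spread in liver was shared by several genes of different classes. The array 0.1 Se liver 2 held the highest value for 6 of the 10 collagen genes listed on every liver array, namely Col1a2, Col3a1, Col4a1, Col4a2, Col6a3 and Col14a1, and it was also the single liver array that listed Col1a1 and Col8a1. The lowest values were on 0 Se liver 3 for 4 genes (Col3a1, Col6a1, Col14a1 and Col27a1), on 0.1 Se liver 1 for 3 (Col1a2, Col4a2 and Col5a3) and on 0.1 Se liver 3 for 3 (Col4a1, Col6a3 and Col18a1). Within liver, Col18a1 was read from its second probe set, which had the higher liver mean. The probe set used between tissues was lowest on 0 Se liver 2, at 12.39. Averaged over the 10 genes, the deviations from the gene means were -0.01, 0.03 and -0.23 on the 0 Se arrays and -0.33, 0.46 and 0.09 on the 0.1 Se arrays. The highest and the lowest mean thus both fell in 0.1 Se liver.

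Some genes outside the family were also highest on 0.1 Se liver 2. The 4 genes of propeptide removal and cross-linking listed on every liver array had mean deviations of 0.01, 0.05 and -0.50 on the 0 Se arrays and 0.01, 0.46 and -0.03 on the 0.1 Se arrays. Pcolce read 8.37, 8.84 and 7.87, and 8.14, 9.24 and 8.49. For markers of hepatic stellate cells the means were 0.11, 0.13 and -0.18, and 0.12, -0.06 and -0.12, and for fibroblast markers 0.16, -0.03 and -0.18, and 0.05, 0.10 and -0.10. Macrophage markers stood at -0.05, -0.42 and -0.14, and 0.17, 0.37 and 0.07. Hepatocyte markers stayed within -0.16 and 0.12. Whether any of these cell types accounts for the spread was not tested.

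**Figure D5:**
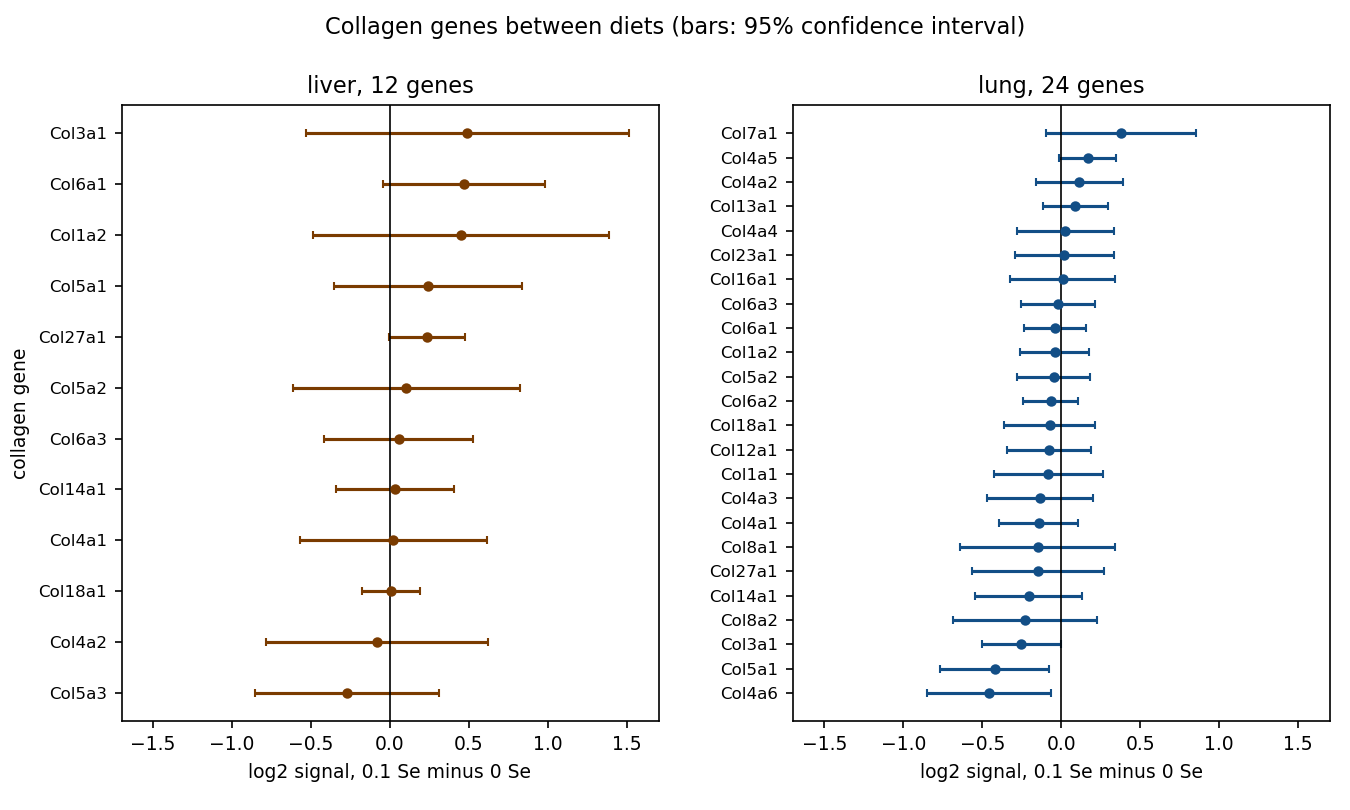
Difference of the log2 signal between diets, 0.1 Se minus 0 Se (x axis), with the 95% confidence interval of limma as bars, for 12 collagen genes in liver (left) and 24 in lung (right). In liver every interval includes 0 and those of Col3a1 and Col1a2 are the widest, and in lung the intervals of Col4a6, Col5a1 and Col3a1 lie below 0 before adjustment for the number of probe sets tested.

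No collagen gene passed the test between diets in liver. Of 12 genes tested, limma called 0 at an adjusted p of 0.05 and 0 had an unadjusted p under 0.05 (the smallest adjusted p was 0.757), and the methods' t-test also called 0. Over all 16575 probe sets 2 were called (0.0121%) and 6.65% had an unadjusted p under 0.05. The 0.1 Se minus 0 Se differences ran from -0.27 to 0.49, with 10 above 0 and a median of 0.08, against a median of -0.0047 over all probe sets. The median was -0.08 without 0.1 Se liver 2 and 0.25 without 0.1 Se liver 3, with the other arrays left out in turn between these. The remaining gene, Col4a5, had 1 value in 0.1 Se liver. Col1a1, listed on a single liver array, could not be tested in liver. The paper lists it among the genes lower on the 0.1 Se diet by RNA sequencing of liver, a measure not used here.

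The largest liver difference was that of Col3a1, from a mean of 10.83 ± 0.65 (SD) to 11.32 ± 1.08, or 0.49 ± 0.46 (SE, n = 3 per diet, adjusted p = 0.879 by limma). It was 0.04 without 0.1 Se liver 2, 0.12 without 0 Se liver 3 and 1.09 without 0.1 Se liver 1. For Col1a2 the value was 0.45 ± 0.42 (adjusted p = 0.880), -0.03 without 0.1 Se liver 2 and 1.03 without 0.1 Se liver 1. The 0.1 Se livers held both the lowest and the highest Col1a2 value, on either side of the 0 Se livers. The 95% interval of Col3a1, -0.53 to 1.51, and that of Col1a2, -0.49 to 1.39, were wide.

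The type IV chains differed by 0.02 ± 0.27 (Col4a1) and -0.08 ± 0.32 (Col4a2) in liver. Col6a1 read 7.38, 6.96 and 6.73 on the 0 Se diet and 7.25, 7.41 and 7.81 on the 0.1 Se diet, a difference of 0.47 ± 0.23 (adjusted p = 0.767), and the diets overlapped. Col6a3 differed by 0.06 ± 0.21. Col27a1, at 0.23 ± 0.11 (adjusted p = 0.757), was the single gene of 10 listed on every liver array whose diets did not overlap, and 12.2% of all such probe sets did not overlap. In its other probe set the diets overlapped (0.11 ± 0.20). For Col18a1 the difference was 0.01 ± 0.08, with an interval of -0.18 to 0.19, from the second probe set. The one used between tissues gave 0.02 ± 0.09.

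Nor did a collagen gene pass the test in lung. limma called 0 of 24 genes (smallest adjusted p = 0.536) and the methods' t-test 0, where 20 of all 21655 probe sets were called (0.0924%). An unadjusted p under 0.05 was found for 3 genes, all with lower values on the 0.1 Se diet, and for 7.67% of all probe sets. The differences ran from -0.45 to 0.38, with 17 of 24 below 0 and a median of -0.07, against -0.01 over all probe sets. The diets did not overlap for 3 of the 24 genes, against 12.9% of all probe sets listed on the 6 lung arrays.

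Col5a1 was at 9.65, 9.93 and 10.07 in 0 Se lung and 9.49, 9.71 and 9.18 in 0.1 Se lung. The diets overlapped, with a difference of -0.42 ± 0.15 (adjusted p = 0.536), and a weaker Col5a1 probe set gave -0.04. Col4a6 read 7.88, 8.15 and 8.28 against 7.39, 7.78 and 7.78, without overlap, and its difference of -0.45 ± 0.18 had an adjusted p of 0.563. Its other probe set gave 0.14, in the opposite direction. Col3a1, at 13.81, 14.00 and 13.92 against 13.48, 13.78 and 13.72, did not overlap either, and differed by -0.25 ± 0.11 (adjusted p = 0.643), with -0.16 from its other probe set.

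The lung differences of the other main chains, none of which passed the test, were -0.04 ± 0.10 for Col1a2, -0.08 ± 0.16 for Col1a1, -0.14 ± 0.11 for Col4a1, 0.11 ± 0.12 for Col4a2, -0.04 ± 0.09 for Col6a1, -0.07 ± 0.08 for Col6a2, -0.02 ± 0.11 for Col6a3 and -0.07 ± 0.13 for Col18a1. The 95% interval of Col1a2 ran from -0.26 to 0.18 in lung. Col4a5, which did not overlap between diets, was higher on the 0.1 Se diet by 0.17 ± 0.08 (adjusted p = 0.688). Its other probe set gave -0.12, in the opposite direction and with overlap. The highest value was that of Col7a1, at 0.38 ± 0.21. The array 0.1 Se lung 1 held the lowest value for 9 of the 24 genes.

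No gene of the 8 collagen-related lists was called between diets. In liver, the chaperone Serpinh1 differed by 0.87 ± 0.26 (adjusted p = 0.594 by limma, from a probe set that can bind related transcripts). Its probe set used between tissues read 7.68, 7.42 and 7.41 in 0 Se liver and 7.52, 8.22 and 7.98 in 0.1 Se liver, and the diets overlapped. Pcolce2 differed by 0.75 ± 0.28 (adjusted p = 0.668) and Smad3, a transducer of TGF-beta signals, by -0.49 ± 0.15 (adjusted p = 0.594). In lung, 17 of 19 fibril-associated proteoglycans and glycoproteins were below 0, of which 6 had an unadjusted p under 0.05, where 47.9% of all probe sets were above 0 and 7.67% had such a p. The 6 included Lum (-0.76 ± 0.27), Tnc (-0.49 ± 0.15) and Fbln1 (-0.36 ± 0.13). Other lung genes lay on either side of 0: Loxl1, a cross-linking enzyme, at -0.38 ± 0.12 (adjusted p = 0.440), Tll1, a proteinase related to Bmp1, at 0.57 ± 0.20 over 3 and 2 arrays (adjusted p = 0.532), and Fkbp14, a folding enzyme of the endoplasmic reticulum, at 0.39 ± 0.11 (adjusted p = 0.403). Of 13 basement membrane partners 11 were below 0.

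In lung, markers of airway and muscle cells had lower mean values on the 0.1 Se diet. Those of mesothelium and macrophages had higher means, and none of these markers passed the test. Of 10 markers of club and ciliated airway cells, 10 were below 0 on the 0.1 Se diet, as were 9 of 9 of smooth muscle and 8 of 8 of cardiac muscle, with an unadjusted p under 0.05 for 8 airway and 2 smooth muscle markers. Of mesothelium 9 of 9 were above 0 and of macrophages 7 of 7. Markers of a cell type were read on the same arrays, so these counts are not of independent genes. The summed signals ranged from 165308 to 226703 in 0 Se lung and from 123174 to 186618 in 0.1 Se lung for airway cells, and from 18177 to 20738 and 15371 to 18372 for smooth muscle. For cardiac muscle they ran from 4653 to 37685 and from 5630 to 21488, and for mesothelium from 10242 to 13519 and from 10179 to 17526. Macrophage sums ran from 11856 to 12709 and from 12224 to 15964, and each of these ranges overlapped between the diets. The cardiac markers had mean deviations of -1.6, 1.7 and 1.0 on the 0 Se lung arrays and 0.8, -1.1 and -0.7 on the 0.1 Se ones. Of 11 cartilage markers 4 were listed, with Acan, Comp and Sox9 blank on the 12 arrays and Cnmd listed in liver alone. In lung 3 were tested by limma. The matrix protein gene Chad was at -1.10 ± 0.20 over 3 and 2 arrays (adjusted p = 0.111) and Cytl1 at -0.42 ± 0.10 (adjusted p = 0.272). Matn4 was near 0, at -0.02 ± 0.17 (adjusted p = 0.992). The part of these tissues in the collagen values was not tested.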

How the data were processed

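Total RNA of liver and lung from male FVB/N mice was hybridized to Affymetrix mouse genome arrays, 12 in all. The authors computed MAS5 signals, scaled each array on its own and left out absent calls, with affy 1.36.0 under R 2.15.2 per the submitters' notes. In the deposited table are log2 signals for 29467 probe sets, from 6.64 to 16.4, with 112136 blank cells. An array listed 17293 to 17981 probe sets in liver and 22251 to 22772 in lung. The values were used as deposited. The genes of probe sets came from the platform annotation, and probe sets of several genes and 58 control probe sets were left out of the gene lists.

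A probe set was tested when each group compared had at least 2 values, and blanks stayed missing. limma 3.58.1 in R 4.3.3 (lmFit and eBayes with a trend) compared the diets within each tissue, and the tissues and their interaction with diet over the 12 arrays, with Benjamini-Hochberg adjustment over all probe sets at 0.05. Every collagen gene tested between tissues was named. Between diets the named ones were the main chains of types I, III, IV, VI and XVIII and genes with an unadjusted p under 0.05, with others at the ends of a range or without overlap named after their values were seen. From each related list up to 4 genes with the smallest p were named. The 20 gene lists comprised 8 of collagen-related pathways and 12 of cell type markers. The members and lists were chosen with earlier results of these data known. Alternatives covered the normalization, centring, an offset of 32, blanks at the lowest value, filters, eBayes settings and a t-test. They also covered the replicate number as a block, other probe sets and each array left out. The paper's methods give a p threshold for the microarray t-test, and the 1.5-fold cutoff was added to it here. The code was tested on simulated data. With 3 arrays per group, their number limits the precision, and an exact permutation test of 3 against 3 cannot go below 0.1. Promoter windows and their motifs were read from RefSeq (GRCm38.p6).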

Additional observations from a re-analysis of the deposited data

How the results depend on the processing

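The tissue calls of 8 collagen genes higher and 2 lower in lung rest on 10 genes, because blanks stayed missing. With blanks at the lowest value of the table, 25 genes could be tested, of which 21 were called higher and 4 lower, against 48.8% and 23.3% of 27339 probe sets, with a median difference of 2.71. For genes blank in liver this setting fixes the direction. Quantile normalization gave a median of 3.80. Leaving out 1 array gave 6 to 8 higher and 2 lower, since Col5a1 and Col5a2 then lacked values, and medians of 3.34 to 3.55. Between diets and in the interaction, every alternative run called 0 collagen genes. Over all probe sets the calls were less stable: 0 to 13 in liver (2 as reported), 0 to 75 in lung (20 as reported, 75 without 0.1 Se lung replicate 1) and 0 to 44 in the interaction. The t-test with the added 1.5-fold cutoff called 136 in liver and 179 in lung at an unadjusted p under 0.05.

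Some uncalled diet differences near 0 changed sign. In liver, leaving out 1 array gave -0.14 to 0.26 for Col6a3, -0.34 to 0.25 for Col4a1, -0.40 to 0.36 for Col4a2, -0.023 to 0.048 for Col18a1 and -0.029 to 1.03 for Col1a2. In lung the ranges were -0.10 to 0.019 for Col6a1, -0.14 to 0.054 for Col6a3, -0.0009 to 0.19 for Col4a2, -0.24 to 0.035 for Col1a1 and -0.12 to 0.0056 for Col1a2. Col18a1 gave -0.0015 in liver under quantile normalization and 0.023 in lung over all its probe sets. The cause was not tested. In a fit with the replicate block, 8 and 2 genes were called between tissues and 0 between diets in liver and lung, with Col5a1 at -0.42 in lung. Same-numbered arrays had correlations of -0.19 to 0.15 over 13376 probe sets, and the labels do not say whether same-numbered arrays share a mouse, so the numbers were not used as pairs. Blanks left 9 of the 25 genes without a liver level for the probe set used.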
